A study of Mus musculus with 32 samples.

Results

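The comparison concerns proB cells of mice that lack 1 allele of Pax5 and differ in how many alleles of Myd88 they keep. The 8 arrays were chosen by their sample titles: 4 of B220+ bone marrow cells from healthy Pax5+/- Myd88-/- mice and 4 of the same cells from healthy Pax5+/- Myd88+/- mice. They are 8 of the 32 arrays of the series and 8 of the 16 arrays of proB cells; WT and Pax5+/- proB cells, 4 arrays each, give the levels with both Myd88 alleles present. Every mouse of the 2 genotypes is heterozygous for Pax5, and the only labelled difference between them is the second Myd88 allele. By the study's methods its mice were of a mixed strain background, and the Myd88 allele was brought in by crossing with another line. How other alleles divide between the 2 genotypes is not given and was not tested. The study asked how innate immune signaling bears on B-cell leukemia in Pax5+/- mice. By the study's methods, proB cells came from the bone marrow of mice aged 2 to 3 weeks, were selected for B220 on magnetic columns and were grown with IL7 on ST2 stromal feeder cells. That description names the WT, Pax5+/- and Pax5+/- Myd88+/- cultures and not Myd88-/- ones, so it is not stated that the null cells were grown in the same way. It also differs from the housing note of the labels, by which animals lived specific pathogen-free for 2 months and were then moved to a conventional facility, and the labels give no treatment.

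Myd88 is the adaptor that joins Toll-like receptors and receptors of the IL1 family to IRAK kinases. The complex they form, the Myddosome, passes the signal through TRAF6 to NF-κB and AP-1, and in some cells to interferon regulatory factors. ProB cells are the B-lineage stage that rearranges the immunoglobulin heavy chain, and they depend on Pax5 and IL7.

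Values are log2 signals of Affymetrix mouse gene arrays, and each difference is Myd88-/- minus Myd88+/-. A probeset, the set of probes for 1 transcript, was called when limma gave an adjusted p under 0.05 and the difference exceeded 2-fold (1 on the log2 scale). The cells carried proB markers in both genotypes. Cd79a, a chain of the B-cell receptor complex, averaged 12.42 in Myd88-/- and 12.45 in Myd88+/- cells. Vpreb1, a surrogate light chain, averaged 12.65 and 12.55, and the recombinase gene Rag1 11.92 and 11.65. The array medians of all probesets lay between 6.88 and 7.01. Of 15 measured proB markers, Dntt alone was called. Xist read 12.29 to 12.52 in all 8 arrays and 5.32 to 6.11 in the 8 arrays of WT and Pax5+/- cells, so that X-linked levels are set against cells of another Xist state.

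Feeder marker levels split the 4 arrays of a genotype, each labeled a biological replicate, in the same way throughout. The stromal feeder markers, 23 genes such as Col1a1 and Bgn, had a median of 7.74 and 7.88 in Myd88-/- arrays 1 and 3, and of 7.50 and 7.30 in arrays 2 and 4. In Myd88+/- cells arrays 1 and 3 stood at 8.21 and 7.97 and arrays 2 and 4 at 7.57 and 7.52. Arrays 1 and 3 were above arrays 2 and 4 in each of the 4 proB genotypes. Across all probesets the same pairs stood out in WT cells, with Pearson's r of 0.9982 for arrays 1 and 3 and 0.9979 for arrays 2 and 4 against 0.9906 to 0.9912 for the other combinations. In Pax5+/- cells these pairs reached 0.9965 and 0.9976, against 0.9913 to 0.9951 for the others. The 2 genotypes compared were mixed, with r from 0.9969 to 0.998 in null and from 0.9914 to 0.9967 in heterozygous cells. The closest arrays were 2 and 4 in null (0.998) and 1 and 3 in heterozygous cells (0.9967). The other pair did not stand out, as null array 1 was closest to array 4 and heterozygous array 4 to array 3. How cultures and arrays relate is not given, so the p-values below measure the spread between these arrays, which may be partly technical. Averaging arrays 1 and 3 and arrays 2 and 4, which leaves 2 samples a genotype, was therefore added after the values were seen. Of the 166 probesets called higher 119, and of the 68 called lower 54, differed between the genotypes by over 2-fold among arrays 1 and 3 alone and among arrays 2 and 4 alone; their direction there was fixed by the calls, whose groups do not overlap. The feeder markers themselves were not called in any of 23 genes (limma; 3 of 23 lower at an unadjusted p under 0.05), and their median difference was -0.30, against -0.04 over all genes.

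Myd88 itself was lowest in the cells labelled null. The probeset, for a gene at chr9:119335934-119340018 (GRCm38.p6), read 7.44, 7.41, 7.04 and 7.38 in the 4 Myd88-/- arrays and 8.78, 8.51, 8.69 and 8.59 in the 4 Myd88+/- arrays. The groups did not overlap. The means were 7.32 ± 0.19 and 8.64 ± 0.12 (SD, n = 4), and WT and Pax5+/- cells stood higher, at 9.46 ± 0.19 and 9.28 ± 0.06. The difference was -1.32 (SE 0.10, limma adjusted p = 1.9e-07), which puts the null signal at 39.9% of the heterozygous one and at 25.7% of that in Pax5+/- cells. The exact 2-sided permutation test gave p = 0.0286, the smallest that 70 arrangements of 8 arrays allow. Where the probes lie relative to the deleted part of the gene is not given in the sources used here, so in the remaining signal a shortened transcript and background cannot be told apart. The upstream sequence of Myd88, the 250 bases before the RefSeq start at chr9:119340019-119340268 on the minus strand of GRCm38.p6, is printed with 1 match to the core of the interferon-stimulated response element (GAAA, any 2 bases, GAAA) in capitals.
Myd88: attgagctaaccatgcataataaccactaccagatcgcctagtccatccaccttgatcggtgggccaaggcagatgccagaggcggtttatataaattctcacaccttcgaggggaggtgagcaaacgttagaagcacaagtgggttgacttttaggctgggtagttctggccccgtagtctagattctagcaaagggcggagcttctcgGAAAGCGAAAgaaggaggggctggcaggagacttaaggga

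**Figure D1:**
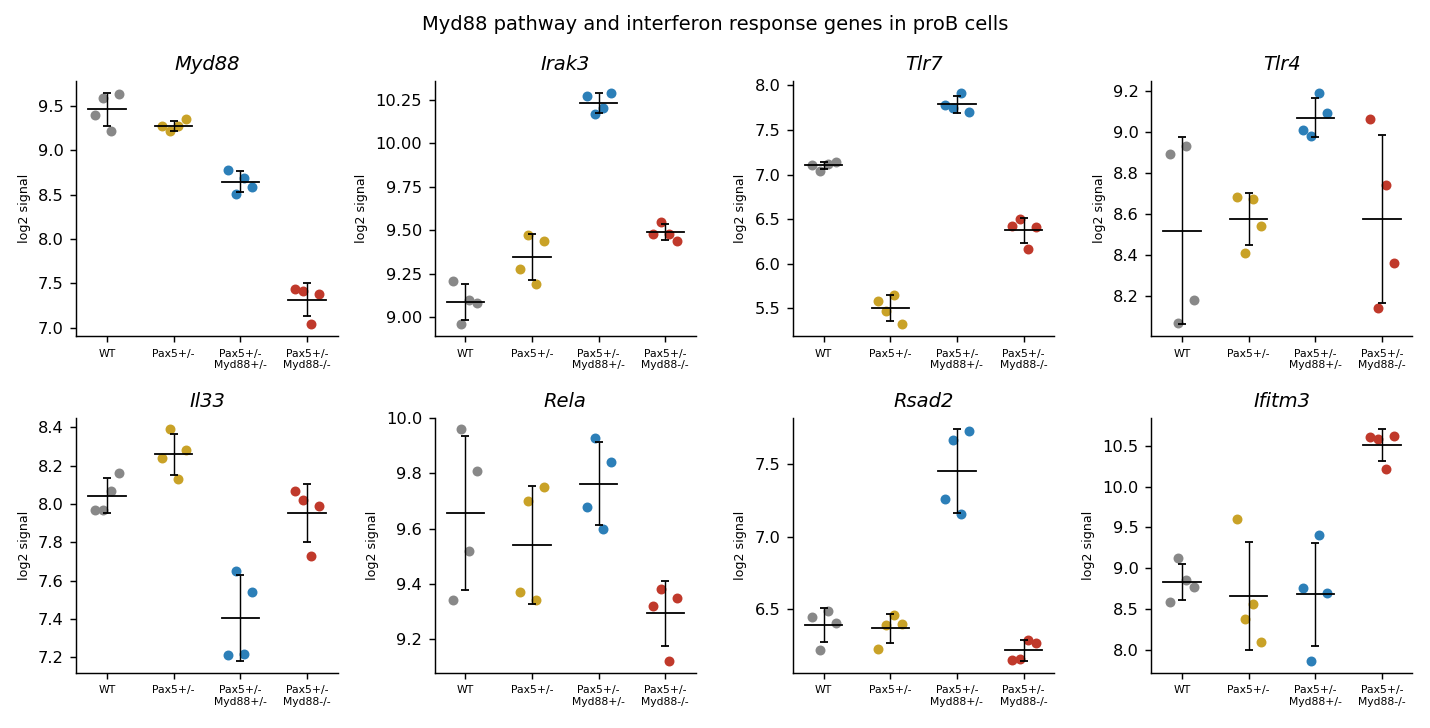
Log2 signal of 8 genes in each of the 16 arrays of proB cells (points), by genotype, with the mean (line) and SD (bar) of 4 arrays; each panel has its own axis, which does not start at 0. Myd88 steps down from WT to Myd88-/-, whereas Irak3, Tlr7 and Rsad2 stand highest in Myd88+/- cells and Ifitm3 in Myd88-/- cells.

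Few genes around the adaptor were called with it. Over all genes with 1 probeset each, 176 of 19938 were called, which is 0.883%: 116 higher (0.582%) and 60 lower (0.301%) in Myd88-/- cells. Among 22 measured members of the Myddosome and the Toll and IL1 receptor adaptors, Myd88 was the 1 gene called, and the median difference was -0.11. Irak3, a kinase-like inhibitor of the complex, read 9.48, 9.55, 9.48 and 9.44 in Myd88-/- arrays and 10.27, 10.17, 10.20 and 10.29 in Myd88+/- arrays. Its groups did not overlap, and the difference of -0.75 (SE 0.07, limma adjusted p = 1.8e-06) was under 2-fold. Pax5+/- and WT cells, at 9.35 and 9.09, were near the null level, so the Myd88+/- arrays were the ones set apart. The kinases Irak1 and Irak2 differed by 0.07 and -0.13, and the ubiquitin ligase Traf6 by 0.04, and none of these passed the adjusted p. The ubiquitin-conjugating gene Ube2n differed by 0.49 (limma adjusted p = 0.075), and its groups overlapped. 4 members were lower and 0 higher at the adjusted p alone (limma; 8 lower and 1 higher at an unadjusted p under 0.05), beside 4.66% of all genes lower and 5.47% higher.

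Of 18 Toll-like receptors and co-receptors 1 was called. Tlr7, an X-linked sensor of single-stranded RNA, read 6.42, 6.50, 6.17 and 6.41 without Myd88 and 7.78, 7.75, 7.92 and 7.70 with 1 allele. The groups stood clear of each other, with a difference of -1.41 (SE 0.08, limma adjusted p = 6.1e-09). WT cells, at 7.10, lay between them and Pax5+/- cells, at 5.51, below both. The levels do not follow the number of Myd88 alleles, and WT and Pax5+/- cells were in another Xist state. Tlr9, the sensor of unmethylated CpG DNA, differed by -0.28 (limma adjusted p = 0.049). Tlr4, the receptor for lipopolysaccharide, read 9.06, 8.14, 8.74 and 8.36 in Myd88-/- and 9.01, 8.98, 9.19 and 9.09 in Myd88+/- cells. These groups overlapped (difference -0.49, limma adjusted p = 0.12), and the 2 higher null arrays were again replicates 1 and 3. Its partner Ly96 differed by 0.60 in the other direction (limma adjusted p = 0.13), with overlap.

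No member of the IL1 family, of 15 measured, and no NF-κB gene, of 21, was called. Over all genes 0.883% were called, a share at which lists of this size would often hold no call. In the IL1 family 1 gene was higher at an unadjusted p under 0.05 and 2 lower (limma). The alarmin cytokine Il33 was the 1 that passed the adjusted p, at 0.55 (SE 0.10, limma adjusted p = 0.0025), with 8.07, 8.02, 7.73 and 7.99 in null and 7.21, 7.65, 7.22 and 7.54 in heterozygous arrays. The null arrays were all higher, and near the 8.04 of WT and 8.26 of Pax5+/- cells. Il1r2, a decoy receptor, differed by -0.40 (limma adjusted p = 0.089). Il18r1, the IL18 receptor, differed by 0.18 (limma adjusted p = 0.67) with overlapping groups, and differed by 0.71 among arrays 1 and 3 but by -0.36 among arrays 2 and 4.

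Among the NF-κB subunits, kinases and inhibitors the median difference was -0.17, with 6 of 21 members above 0, against 37.9% of all genes above 0. At an unadjusted p under 0.05, 7 were lower and 2 higher (limma). At the adjusted p 3 were lower and 1 higher, beside 4.66% and 5.47% of all genes. Rela, the p65 subunit, read 9.32, 9.38, 9.12 and 9.35 in null and 9.68, 9.93, 9.60 and 9.84 in heterozygous arrays. The groups did not overlap, and the difference was -0.47 (SE 0.13, limma adjusted p = 0.030). Relb differed by -0.29 (limma adjusted p = 0.0071) and the nuclear IκB protein gene Nfkbiz by -0.37 (limma adjusted p = 0.025). The nuclear inhibitor Nfkbid was 0.34 higher (limma adjusted p = 0.033). Tnfaip3, the ubiquitin-editing brake on the pathway, differed by -0.37 (limma adjusted p = 0.13), and its groups overlapped.

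Of 48 genes known to respond to TNF and NF-κB none was called, where 0.883% of all genes were. By limma 15 were lower and 2 higher at an unadjusted p under 0.05. The adjusted p alone was passed by 7 lower and 1 higher, beside 4.66% of all genes lower and 5.47% higher. The chemokine Ccl5 averaged 7.03 in null and 7.64 in heterozygous cells (difference -0.62, SE 0.05, limma adjusted p = 3.1e-07). The kinase gene Sgk1 differed by -0.69 and the immediate-early gene Ier3 by -0.47, both past the adjusted p. Of 24 immediate-early and AP-1 factors none was called (limma; 6 lower and 2 higher at an unadjusted p under 0.05).

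**Figure D2:**
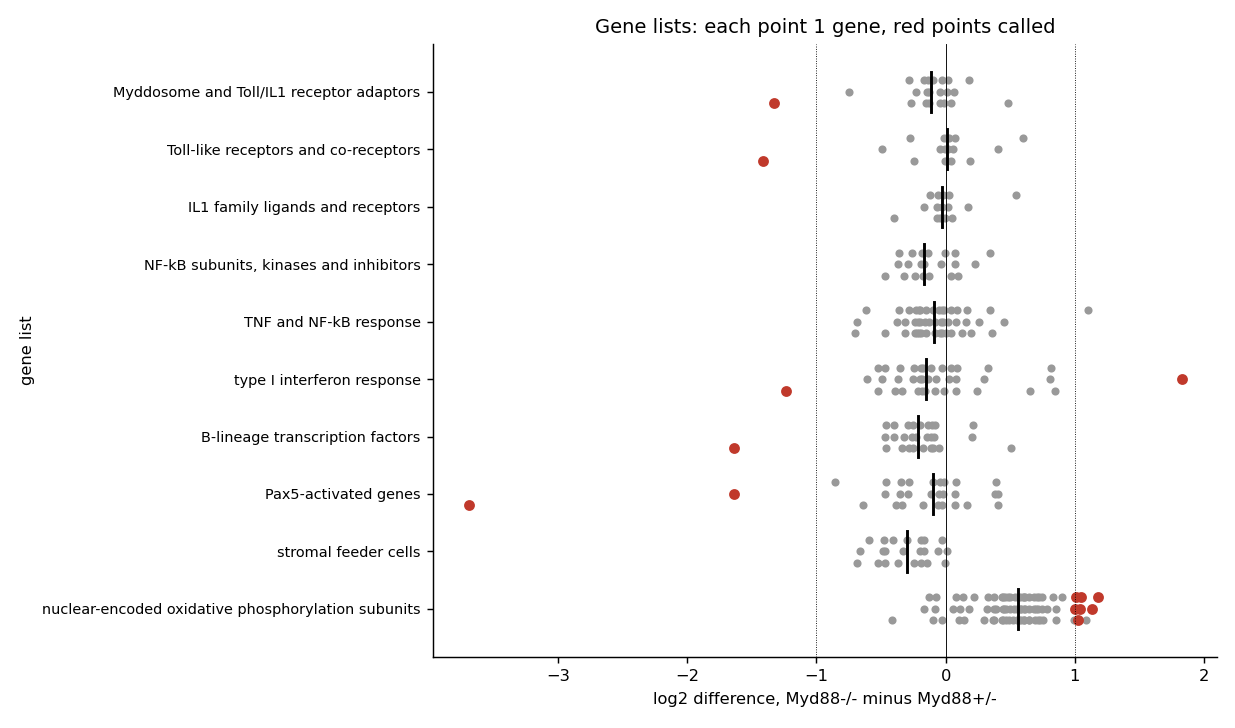
Log2 difference (Myd88-/- minus Myd88+/-) of every measured gene in 10 lists; red points were called, the bar is the list's median and the dotted lines mark 2-fold. The Toll, IL1 and NF-κB lists sit near 0 with a few outlying genes, and the oxidative phosphorylation list, chosen after its values were seen, has a median of 0.56.

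Type I interferon response genes went both ways. Of 38 measured genes 1 was called higher and 1 lower, and 5 passed the adjusted p in each direction, with a median of -0.15. Of all genes 5.47% passed it higher and 4.66% lower. Ifitm3, a membrane protein that blocks virus entry, read 10.61, 10.58, 10.21 and 10.62 in Myd88-/- and 8.75, 7.86, 9.41 and 8.69 in Myd88+/- arrays. All null arrays were above all heterozygous ones, by 1.83 on average (SE 0.30, limma adjusted p = 9.1e-04). Its relatives Ifitm1 and Ifitm2 were 0.84 and 0.81 higher, and the immunoproteasome subunit Psmb8 0.82 higher, all past the adjusted p and under 2-fold. With the array pairs averaged, Ifitm3 lost its call (limma adjusted p = 0.067).

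Rsad2, the antiviral enzyme viperin, moved the other way. It read 6.15, 6.16, 6.29 and 6.27 in null and 7.26, 7.67, 7.16 and 7.73 in heterozygous arrays, a difference of -1.24 (SE 0.11, limma adjusted p = 1.5e-06). WT and Pax5+/- cells, at 6.39 and 6.37, were near the null level. Oas2, Irf7, Ifit1 and Ifih1 differed by -0.61, -0.53, -0.50 and -0.47, past the adjusted p and under 2-fold. Fitted to all 32 arrays, in which the leukemias add to the estimate of spread, Rsad2 lost its call (limma adjusted p = 0.14). The 250 bases before the RefSeq start of Rsad2, chr12:26456453-26456702 on the minus strand of GRCm38.p6, are shown because they hold the same response element core, on the opposite strand, in capitals.
Rsad2: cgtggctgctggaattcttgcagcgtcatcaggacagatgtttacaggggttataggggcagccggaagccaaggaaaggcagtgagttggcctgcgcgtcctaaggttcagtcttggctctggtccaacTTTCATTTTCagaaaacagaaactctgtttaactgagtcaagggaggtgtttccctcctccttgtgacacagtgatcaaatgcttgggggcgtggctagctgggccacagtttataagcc

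That core, read on both strands, was found in 6 of 59 promoters (10.2%) of genes called lower, in 3 of 120 (2.5%) of genes called higher and in 1131 of 32851 (3.44%) of all promoters of 300 bases. The 6 belong to Cybb, Ifi207, Mmp13, Myd88, Rbms3 and Rsad2, of which Rsad2 is in the interferon list. Myd88 counts among them as the targeted gene, and Rbms3 is a called neighbour of Myd88. Cybb and Ifi207 are named here after their values were seen. The AP-1 motif TGANTCA was in 11.9% of promoters of genes called lower, 10% of those called higher and 7.81% of all. The kappaB motif was in 1.69%, 4.17% and 4.51%. Promoters were matched by symbol for 46 of 60 genes called lower and 98 of 114 called higher (predicted genes and Trgv1 left out), and a match is a run of letters, not a tested site.

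Across the whole array 234 of 28944 probesets were called (0.808%): 166 higher (0.574%) and 68 lower (0.235%) in Myd88-/- cells. Without the fold threshold 3003 (10.4%) passed the adjusted p, of which 61.1% were higher. With the array pairs averaged the count was 148, of which 147 were among the 234. Single genes far over 2-fold led both directions, and few of them belong to the Toll pathway.

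The largest rise under the rule for named genes was that of Pcdh11x, an X-linked protocadherin. It read 9.67, 9.63, 9.64 and 9.58 in Myd88-/- arrays and 5.08, 4.93, 5.21 and 4.98 in Myd88+/- arrays (difference 4.58, SE 0.07, limma adjusted p = 7.4e-17). WT and Pax5+/- cells, at 5.00 and 4.95, matched the heterozygous level, so that the signal was high in null cells alone among the 4 genotypes. Pde5a, the phosphodiesterase that breaks down cGMP, had the same pattern: 8.43 in null cells and between 5.72 and 5.75 in the means of the other 3 genotypes. Zfp760, a zinc-finger gene, read 11.22, 10.95, 11.19 and 10.97 in null and 6.88, 6.39, 6.81 and 6.40 in heterozygous arrays. WT and Pax5+/- cells averaged 10.49 and 10.15, so that the heterozygous arrays lay far below the other 3 genotypes and the null arrays a little above them. The zinc-finger gene Zfp709, the auxilin gene Dnajc6 and Tgfb3, a TGF-beta ligand, were likewise low in Myd88+/- cells and not in the other 3 genotypes, with differences of 2.47, 2.35 and 2.58. Zfp709 lost its call with the array pairs averaged (limma adjusted p = 0.051).

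Pgr, the progesterone receptor, differed by 2.80 and was high in both null (8.82) and Pax5+/- cells (9.94) but at 6.02 and 6.01 in Myd88+/- and WT cells. Bmpr1a, a type I receptor for bone morphogenetic proteins, and the zinc-finger gene Zfp507, with differences of 2.90 and 2.46, were also high in these 2 genotypes, but higher in null (8.78 and 8.83) than in Pax5+/- cells (8.01 and 8.51). Jmjd8 differed by 2.62, with 8.85 in WT cells, between the 2 groups. Beyond the 12, Casp1, the protease that matures IL1β, was 1.45 higher (limma adjusted p = 3.9e-05), and was named after its value was seen.

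The largest fall was that of Slamf6, a homophilic receptor of the SLAM family on lymphocytes. It read 6.00, 6.15, 5.96 and 5.98 in Myd88-/- and 9.45, 9.82, 9.63 and 9.95 in Myd88+/- arrays (difference -3.69, SE 0.10, limma adjusted p = 9.0e-13). WT and Pax5+/- cells, at 6.38 and 6.15, were at the null level, so Slamf6 was high in heterozygous cells alone. Of 11 SLAM family genes it was the 1 called, and its relatives Cd84 and Cd48 were 0.77 and 0.70 higher in null cells, past the adjusted p and under 2-fold. The X-linked genes Bex3 and Tceal9 and the carbonic anhydrase gene Car13 had the Slamf6 pattern, with differences of -2.79, -2.13 and -1.93.

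Plxnb2, a plexin that binds semaphorins, showed the opposite order. It read 6.60, 6.44, 6.51 and 6.16 in null and 9.03, 9.22, 9.17 and 9.35 in heterozygous arrays, a difference of -2.77 (SE 0.09, limma adjusted p = 5.2e-12). The means of 9.44 in WT and 9.30 in Pax5+/- cells were at the heterozygous level, so Plxnb2 was low in null cells alone. Gas7, the prostaglandin reductase gene Ptgr1 and Tbc1d8b were also low in null cells alone (differences -2.17, -2.05 and -1.94). Gas7 and Ptgr1 lost their calls with the pairs averaged (limma adjusted p = 0.064 and 0.11).

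The matrix proteases Mmp13 and Mmp14 were lower in Myd88-/- than in Myd88+/- cells, with differences of -2.74 and -2.05. In WT and Pax5+/- cells Mmp13 averaged 6.82 and 9.05, and Mmp14 7.64 and 7.40. For both genes the Myd88+/- arrays thus lay above all other proB arrays, and the null arrays were not set apart. Mmp13, a collagenase, read 8.34, 7.14, 8.12 and 7.14 in null and 10.10, 10.64, 10.27 and 10.69 in heterozygous arrays. The groups did not overlap, yet within the null cells arrays 1 and 3 were higher, as the feeder markers were, and within the heterozygous cells they were lower. The part of feeder RNA in these differences was not tested; among arrays 1 and 3 alone Mmp13 differed by -1.96 and among arrays 2 and 4 by -3.53. Mmp14 lost its call with the pairs averaged (limma adjusted p = 0.078). Cmah, which makes the sialic acid Neu5Gc, and Cyp2j9, a cytochrome P450, were high in heterozygous and Pax5+/- cells and low in null and WT cells, with differences of -2.70 and -1.94.

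**Figure D3:**
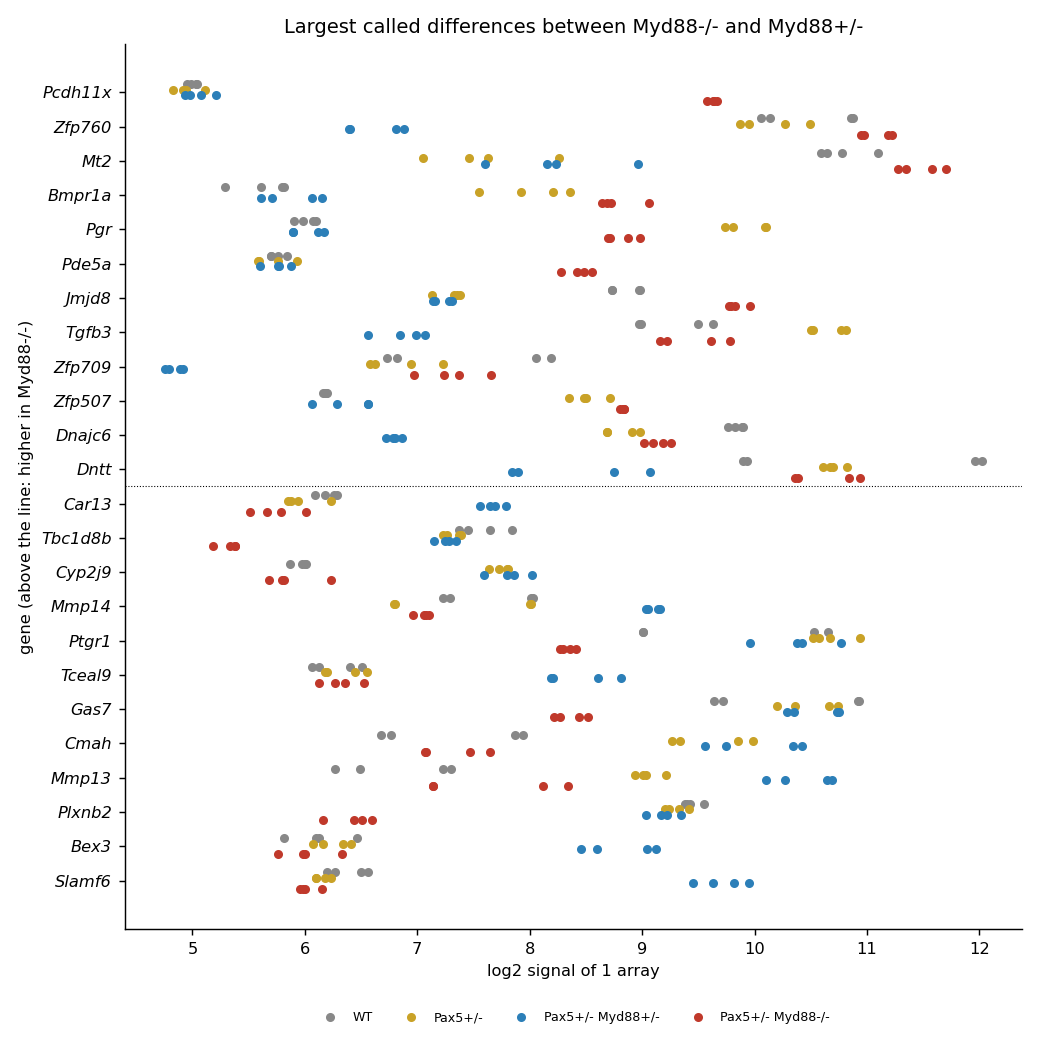
Log2 signal of the 12 largest rises (above the dotted line) and 12 largest falls in Myd88-/- against Myd88+/- proB cells; each point is 1 array, coloured by genotype, 4 arrays a genotype. WT and Pax5+/- points side with the heterozygous arrays for some genes (Pcdh11x, Plxnb2) and with the null arrays for others (Zfp760, Slamf6).

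The called probesets thus divided between the 2 genotypes. In 93 of 234 (39.7%) the 4 null arrays lay outside the range of all 12 other proB arrays and the heterozygous ones did not. In 79 (33.8%) the heterozygous arrays did so instead, in 3 both did and in 59 neither. Over all probesets these shares were 4.69% for null and 1.29% for heterozygous arrays. Among probesets called lower in null cells the heterozygous arrays stood alone in 33 of 68 and the null arrays in 17, while among those called higher the counts were 46 and 76 of 166. These counts are a description, since the calls chose the probesets.

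Single genes of the B lineage were called. Of 28 B-lineage transcription factors 25 lay below 0, the median was -0.22, and 1 was called (3.57%, beside 0.883% of all genes). Ikzf3, the zinc-finger factor Aiolos, read 6.16, 6.78, 6.64 and 6.76 in Myd88-/- and 8.17, 8.35, 8.11 and 8.26 in Myd88+/- arrays (difference -1.64, SE 0.12, limma adjusted p = 1.2e-07). The WT and Pax5+/- means were 8.03 and 8.35, so Ikzf3 was low in null cells alone. Ebf1, which acts with Pax5 to fix B-lineage identity, averaged 12.07 and 12.54 (difference -0.47, limma adjusted p = 2.6e-04). The WT arrays, at 11.99 to 12.26, overlapped the null ones, at 11.93 to 12.19, and Pax5+/- arrays read 12.33 to 12.51. Spib was the 1 factor higher at the adjusted p, by 0.51. Pax5 itself differed by -0.26 (limma adjusted p = 0.13), with 10.88 to 11.05 in null and 11.02 to 11.41 in heterozygous arrays. These overlapping ranges came from cells that carry the same Pax5 genotype.

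Of 29 Pax5-activated genes 2 were called (6.90%, beside 0.883% of all genes), Slamf6 and Ikzf3, both lower. At the adjusted p 8 were lower and 1 higher, beside 4.66% of all genes lower and 5.47% higher. Of 27 genes repressed by Pax5 none was called (limma; 8 lower and 5 higher at an unadjusted p under 0.05).

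In V(D)J recombination 1 of 14 genes was called (7.14%, beside 0.883% of all genes). Dntt, the enzyme that adds untemplated bases at rearranged joints, read 10.94, 10.39, 10.84 and 10.36 in null and 7.90, 8.75, 7.84 and 9.07 in heterozygous arrays. The difference was 2.24 (SE 0.43, limma adjusted p = 0.0033), and the WT and Pax5+/- means of 10.95 and 10.70 sided with the null cells. Arrays 1 and 3 were higher than 2 and 4 in null cells and lower in heterozygous cells, and the difference was 3.02 in the first pair and 1.47 in the second. With the pairs averaged the call was lost (limma adjusted p = 0.17), and likewise with all 32 arrays (0.087). Of 22 pre-B receptor genes none was called (limma; 4 higher and 3 lower at an unadjusted p under 0.05), and the same held for 20 genes of the IL7 receptor and its JAK-STAT5 pathway (limma; 5 and 2).

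The single largest difference of any probeset was in a T-cell receptor gamma segment, which the rule for named genes leaves out and which was chosen after its value was seen. Trgv1 read 12.39, 12.24, 12.29 and 12.24 in Myd88-/- and 5.05, 5.01, 4.79 and 4.87 in Myd88+/- arrays, a difference of 7.36 (limma adjusted p = 2.4e-19). It averaged 4.94 in WT and 5.20 in Pax5+/- cells. A further 3 probesets, each annotated jointly to several gamma variable segments (Trgv6 and Trgv4, and for a pair of them also Trgv2), were 4.30, 4.46 and 4.78 higher. The first averaged 9.05 in null and 4.75 in heterozygous cells, 4.57 in Pax5+/- and 7.40 in WT cells. The other 2 averaged 13.19 and 13.05 in null, 8.74 and 8.28 in heterozygous, 9.75 and 9.58 in Pax5+/- and 11.79 and 11.41 in WT cells. The T-cell markers did not move with them: 11 of 12 lay below 0, among them Cd3e (6.86 and 6.99) and Cd3g (5.55 and 5.65). Lat, an adaptor of the T-cell receptor, was the 1 called, 1.52 higher, and Cd5 was -0.47 on the same scale, past the adjusted p.

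Both ubiquitous metallothioneins, small proteins that bind zinc and copper, were higher without Myd88. Mt2 read 11.35, 11.70, 11.28 and 11.58 in null and 7.60, 8.15, 8.23 and 8.96 in heterozygous arrays (difference 3.24, SE 0.25, limma adjusted p = 3.4e-07). Mt1 averaged 12.07 and 10.12, a difference of 1.94 (limma adjusted p = 1.9e-05), with no overlap. For Mt2, WT cells (10.78) were nearer the null level and Pax5+/- cells (7.60) nearer the heterozygous one. For Mt1, WT cells lay between the groups, at 11.22 (10.83 to 11.64 by array), overlapping neither, and Pax5+/- cells averaged 10.65. Mt3, the brain form, was not called and differed by -0.12. The upstream sequence of Mt2, the more strongly changed of the pair, is printed as the 250 bases before its RefSeq start, chr8:94172368-94172617 on the plus strand of GRCm38.p6. The capitals mark the core of the metal response element, TGCACNC or TGCGCNC on either strand, a motif added after the values were seen.
Mt2: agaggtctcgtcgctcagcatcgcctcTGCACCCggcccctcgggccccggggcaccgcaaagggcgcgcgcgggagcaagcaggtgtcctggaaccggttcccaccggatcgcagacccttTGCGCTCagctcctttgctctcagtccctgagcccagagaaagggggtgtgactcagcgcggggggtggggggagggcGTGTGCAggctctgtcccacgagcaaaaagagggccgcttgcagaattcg
These bases hold 3 matches, and the 50 bases that follow 1 more. The core is short, and 25.7% of all promoters hold it, as do 37.5% of those of genes called higher and 23.7% of those called lower.

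Genes of the respiratory chain were higher in null cells as a group. The list, 84 nuclear-encoded subunits of oxidative phosphorylation, was written after the values were seen and is described by counts. Of them 77 were above 0, against 37.9% of all genes, the median difference was 0.56, 7 were called (8.33%, beside 0.883% of all genes) and 36 passed the adjusted p higher and 1 lower. Ndufb2, a subunit of complex I, differed by 1.13 (SE 0.18, limma adjusted p = 7.9e-04), and the ATP synthase subunit Atp5md by 1.18 (limma adjusted p = 0.028). Cycs, cytochrome c, averaged 11.09 and 10.06. The list's median was 10.26, 10.24, 10.08 and 10.24 in the 4 null arrays and 9.51, 9.19, 9.94 and 9.80 in the 4 heterozygous ones. The groups did not overlap, but Pax5+/- array 1, at 10.18, lay within the null range while its 3 companions lay between 9.35 and 9.52.

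That group rests on few arrays. Without Myd88+/- replicate 2, the lowest array, 1 gene was called and 5 passed the adjusted p higher, and without replicate 3, the highest, 11 and 58. Leaving out any 1 of Myd88-/- replicates 1, 2 and 4 or Myd88+/- replicate 1 left 10 to 14 higher at the adjusted p. In a fit of the 8 arrays alone 8 were called and 59 passed. A second quantile normalization left 2 called and 28 passing, with a median of 0.44, and array weights left 2 and 58. With the array pairs averaged none was called and 5 passed (limma; 70 of 84 higher at an unadjusted p under 0.05 with all arrays). The 59 cytosolic ribosomal protein genes, also chosen after the values were seen, had a median of 0.29 with 57 above 0 and 1 called, Rps27l, at 1.04. A second quantile normalization brought that median to 0.08. Of 39 Myc and ribosome biogenesis genes 35 were above 0 and none was called (limma; 12 higher and 1 lower at an unadjusted p under 0.05). Mycn differed most, by 0.96 (limma adjusted p = 0.0082).

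**Figure D4:**
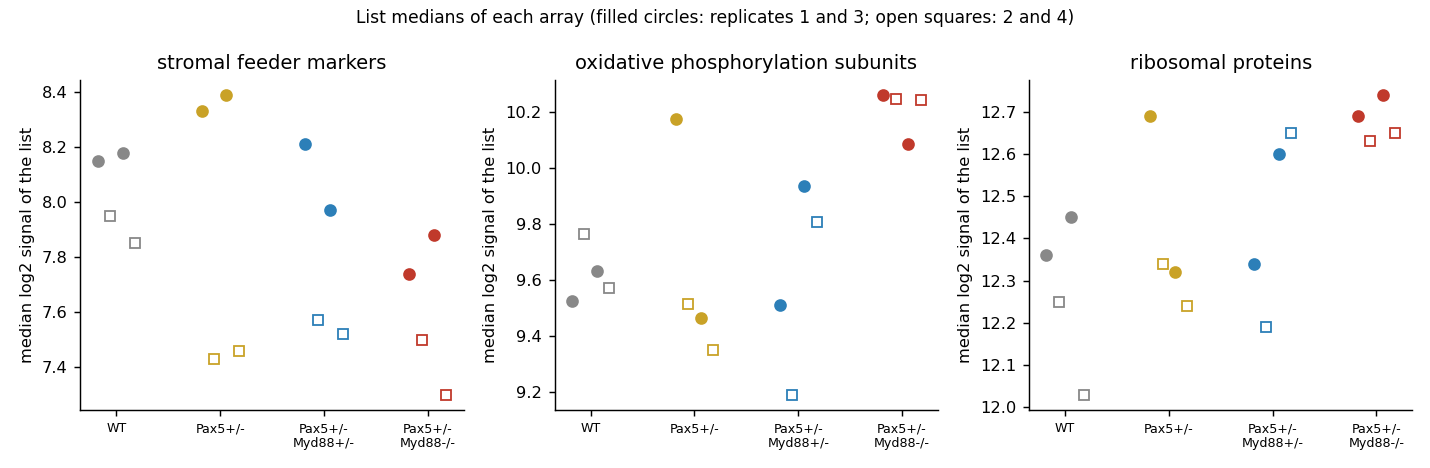
Median log2 signal of 3 gene lists in each of the 16 proB arrays, by genotype; filled circles are replicates 1 and 3, open squares replicates 2 and 4, and the axes do not start at 0. Feeder markers are higher in replicates 1 and 3 of every genotype, and the oxidative phosphorylation median is highest in the null arrays and in 1 Pax5+/- array.

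The remaining lists gave single genes. Of 34 TGF-beta and BMP genes Bmpr1a and Tgfb3 were called, both higher. Itga6, the laminin receptor subunit, was 1.46 higher (limma adjusted p = 7.6e-05) and is in the adhesion and the IL2-STAT5 lists. Its call was lost with the array pairs averaged (limma adjusted p = 0.059) and with all 32 arrays (0.061). The other 3 calls of 49 IL2-STAT5 targets were Tlr7, Nrp1 (lower) and the inhibitory receptor gene Ctla4 (higher). Cdkn2a, which encodes the cell cycle inhibitors p16 and p19Arf, read 9.81, 10.39, 10.25 and 10.32 in null and 8.67, 8.77, 8.72 and 8.75 in heterozygous arrays. That difference of 1.47 (limma adjusted p = 3.5e-07) set the null cells above all other proB arrays. Meis1, a homeobox gene of hematopoietic progenitors, was 1.06 higher (limma adjusted p = 9.1e-08), and Tfrc, the transferrin receptor, 1.07 (limma adjusted p = 0.0032). Tfrc lost its call with the array pairs averaged (limma adjusted p = 0.16), and its difference was under 2-fold after a second quantile normalization and without Myd88+/- replicate 2 or 4. In S phase and mitosis, 44 genes, none was called (limma; 8 lower and 4 higher at p under 0.05 before adjustment), with a median of 0.01.

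Among markers of other blood cells Lat and Tfrc were the 2 called, where 0.883% of all genes were called. Of 17 macrophage, 20 granulocyte, 13 NK-cell, 11 dendritic and 8 platelet markers none was called (limma; at an unadjusted p under 0.05 between 0 and 2 were higher and between 1 and 4 lower in each list). The mean signal of the macrophage list ran from 6.52 to 6.58 in null and from 6.51 to 6.57 in heterozygous arrays, and that of the granulocyte list from 5.83 to 5.96 and from 5.89 to 6.04. In the feeder list the ranges were 7.27 to 7.62 and 7.43 to 8.15. The erythroid list had 1 call, Tfrc, which dividing cells also express.

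Genes near the targeted allele were counted separately. Of the 50 measured genes on each side of Myd88 3 were called (3%, beside 0.883% of all genes). Itga9, an integrin subunit that starts 0.729 Mb from Myd88 toward lower coordinates, read 7.10, 6.65, 7.14 and 6.53 in null and 8.23, 8.69, 8.34 and 8.92 in heterozygous arrays, a difference of -1.69 (limma adjusted p = 2.5e-04). WT cells, at 6.95, were at the null level and Pax5+/- cells, at 9.17, above both. Rbms3, an RNA-binding protein gene 2.763 Mb away on the same side, differed by -1.17 and was high in heterozygous cells alone. Higd1a, a mitochondrial protein gene 2.513 Mb toward higher coordinates, was 1.22 higher by 1 probeset and equal in both groups, at 6.50, by the other, so its call is uncertain. Itga9 lost its call with the pairs averaged (limma adjusted p = 0.098). Among the 10 nearest genes on each side none was called, and 2 passed the adjusted p lower, Ctdspl at -0.50 and Xylb at -0.47. By chromosome, the share of genes called was 1.46% on chromosome 9, 1.89% on X and 2.43% on chromosome 14, with the other autosomes between 0.262% and 1.36%.

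**Figure D5:**
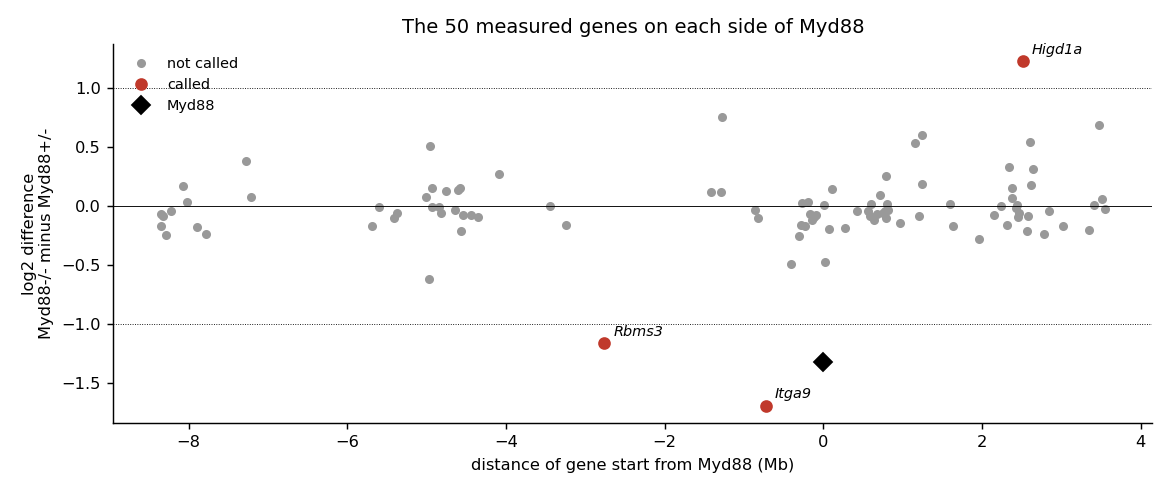
Log2 difference (Myd88-/- minus Myd88+/-) of the 50 measured genes on each side of Myd88 against the distance of their starts from that of Myd88 in Mb; red points were called, the diamond is Myd88 and the dotted lines mark 2-fold. Itga9 and Rbms3 lie on 1 side and Higd1a on the other. The 10 nearest genes on each side all differed by under 2-fold, with Ctdspl (-0.50) and Xylb (-0.47) furthest from 0.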

How the data were processed

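Biotin-labelled RNA was hybridised to Affymetrix mouse gene arrays. The authors deposited gene-level log2 values, made in the Transcriptome Analysis Console by RMA, which corrects background, normalizes quantiles and summarizes probes, on mm10. Quantile normalization gives arrays like distributions, so a shift of all genes at once cannot be seen. All 28944 probesets were tested: 21789 name 1 gene, 1621 several and 5534 none, of which 357 take a name from the study's tables. For lists, a gene took its probeset with the highest mean, giving 19938 genes. limma 3.58.1 in R 4.3.3 was fitted to the 16 proB arrays in 4 genotypes, with Benjamini-Hochberg adjustment over all probesets, and tested on simulated data. The 4 arrays a genotype limit the precision. The comparison, its members and the 37 lists (826 of 891 entries measured, some by a unique synonym) were chosen with earlier results of these data known. Named genes are Myd88, the 12 largest rises and falls naming 1 gene with groups apart (antigen receptor segments, histones, small or mitochondrial RNAs and predicted or unnamed transcripts left out), the 2 largest calls of each list, the 3 largest changes in the Myddosome, Toll, IL1 and NF-κB lists, and called neighbours of Myd88. All other genes in the text were chosen after their values were seen. Alternatives were other sets of arrays, centring, a second quantile normalization, a filter at a mean of 6, limma-trend, array weights, the replicate number as a block, each array left out, other thresholds, gene medians, and, after the values were seen, pairs of arrays averaged or as a random block. Promoters come from RefSeq, GRCm38.p6. The result for 1 further probeset is not reported here.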

Additional observations from a re-analysis of the deposited data

Results flagged for a closer look

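Among 94 groups of 4 arrays examined for an array far from the rest, 2 were marked, and chance marks about 1 in 20 such groups. Myd88-/- replicate 3 read 7.04 for Myd88, with the other 3 arrays between 7.38 and 7.44, so that the gap was 0.85 of the range. The same array read 10.21 for Ifitm3, with the others between 10.58 and 10.62, a gap of 0.902 of the range. Without that array Myd88 differed by -1.23 (limma adjusted p = 4.4e-07).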

How the results depend on the processing

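The 234 calls became 3003 with no fold threshold, 434 by limma's treat against a fold of 1.2, and 148 with the pairs of arrays averaged (101 higher against 166; list genes called 10 against 16). Under every other alternative that spans all arrays the count lay between 181 (all 32 arrays) and 256 (median centring). Leaving out 1 array gave 203 to 310 calls, 135 to 235 higher and 63 to 75 lower, 15 to 19 list genes, 3 neighbours of Myd88 throughout, and a Myd88 difference of -1.37 to -1.23. Of 828 refits of single named genes, 812 kept direction and call, 15 lost the call, and 1 turned: Il18r1, which went from -0.02 (without Myd88+/- replicate 1) to 0.34 as single arrays were left out. The cause was not tested; averaging also leaves 8 samples for the fit. The replicate number as a block gave 235 calls, holding all 234, and Myd88 at -1.32. Whether equal numbers share a batch across genotypes is not given. Deviations of same-numbered arrays correlated at -0.10, 0.16, -0.27 and 0.13 across probesets, which does not decide it. Feeder markers were higher in replicates 1 and 3 of every genotype. Signal over background limits genes near the array floor.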
